A study of Mus musculus with 28 samples.

Results

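Regulatory T (Treg) cells treated with 3-nitropropionic acid (3-NPA), an inhibitor of mitochondrial complex II, were compared with untreated Treg cells in 6 of the 28 RNA-seq libraries of the series. The libraries were chosen by their labels: 3 of 3-NPA and 3 of untreated cells. Every gene that passed a filter on low counts entered the comparison, which left 11689 of 43430 listed genes. The treated cells received 500 µM 3-NPA, and the untreated cells had no inhibitor. Libraries of cells given 1 µM piericidin or 1 µM antimycin A (n = 3 each) share the same untreated libraries and served to test where 3-NPA differed from another inhibitor. All 4 groups were CD4+ YFP-Foxp3+ CD25+ cells of RISP WT genotype from 3-week-old C57BL/6NJ mice, kept in vitro. RISP is the Rieske iron-sulfur subunit of complex III, and it was intact in these cells. The length of the exposure, the number of mice and whether replicates are separate cultures were not given in the labels, so each p-value measures the spread between libraries, which may be technical.

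Complex II, or succinate dehydrogenase, is the enzyme that belongs both to the tricarboxylic acid (TCA) cycle and to the respiratory chain: it oxidizes succinate to fumarate and passes the electrons to ubiquinone. 3-NPA resembles succinate and is known to inactivate the enzyme at its succinate site, whereas piericidin blocks the transfer of electrons to ubiquinone in complex I and antimycin A blocks complex III, which takes electrons back from ubiquinol. Treg cells are CD4+ T cells that depend on the transcription factor Foxp3 and restrain other lymphocytes, and they are known to rely strongly on mitochondrial respiration.

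The 6 libraries held 2707199 to 3445930 counts, and the 50 most abundant genes took 10.5 to 11.7% of them. The markers of the sorted cell were present at high levels. Foxp3 read 584, 618 and 622 CPM (counts scaled to library size) in 3-NPA cells against 516, 570 and 539 CPM in untreated cells, and Il2ra, which encodes CD25, read 2449 to 2908 CPM against 2822 to 2905 CPM. Markers of other cell types varied. The immunoglobulin gene Ighm read 309 to 449 CPM in 3-NPA cells and 469 to 541 CPM in untreated cells, and Xbp1, a plasma cell gene that other cells also use, 145 to 176 CPM in 3-NPA cells and 181 to 191 CPM in untreated cells. The cytotoxic cell gene Nkg7 read 18.3 to 29.9 CPM in 3-NPA cells and 20.2 to 26.5 CPM in untreated cells. In contrast, the B cell gene Ms4a1 and the natural killer cell gene Ncr1 had 0 counts in all 12 in vitro libraries, and the 12 macrophage and monocyte markers summed to 15.9 to 19.2 CPM in 3-NPA cells and 18.7 to 20.9 CPM in untreated cells.

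3-NPA changed 377 of 11689 genes (3.23%) at an adjusted p under 0.05 by edgeR's quasi-likelihood test with Benjamini-Hochberg adjustment, which is the test behind every adjusted p given here. Of these, 158 (1.35%) were higher and 219 (1.87%) were lower in 3-NPA cells. The shares of 1.35% and 1.87% are the reference for the counts of list members against untreated cells given below. Most changes were small. The median absolute log2 fold change of the called genes was 0.54, 214 of them changed by less than 1.5-fold, and 53 by at least 2-fold (35 higher, 18 lower). The median over all genes tested was -0.01. The CPM of the groups did not overlap in 2486 genes (21.3%), and 373 genes (3.19%) were both called and without overlap. When a change of at least 1.5-fold was made part of the test, 9 genes remained: mt-Rnr1, mt-Rnr2, Cdkn1a and Filip1l, which were higher, and mt-Nd2, mt-Nd4, mt-Nd5, mt-Nd6 and mt-Cytb, which were lower. With the same untreated libraries as reference, piericidin changed 1584 genes (13.6%, with 5.62% higher and 7.93% lower) and antimycin A 1754 (15.0%, with 6.50% higher and 8.50% lower). Set directly against piericidin, 3-NPA differed in 502 genes (4.29%), with 284 higher and 218 lower, and against antimycin A in 465 genes (3.98%), with 278 higher and 187 lower. The count against untreated cells depended on single libraries: it was 130 without 3-NPA replicate 3, 180 without 3-NPA replicate 2, 153 without untreated replicate 1 and 172 without untreated replicate 3. The count for 3-NPA against piericidin was 230 without 3-NPA replicate 1, 287 without 3-NPA replicate 3, and 302 and 231 without piericidin replicates 2 and 3. That for 3-NPA against antimycin A was 188 without 3-NPA replicate 1, 279 without 3-NPA replicate 3, and 308 and 194 without antimycin A replicates 2 and 3.

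**Figure D1:**
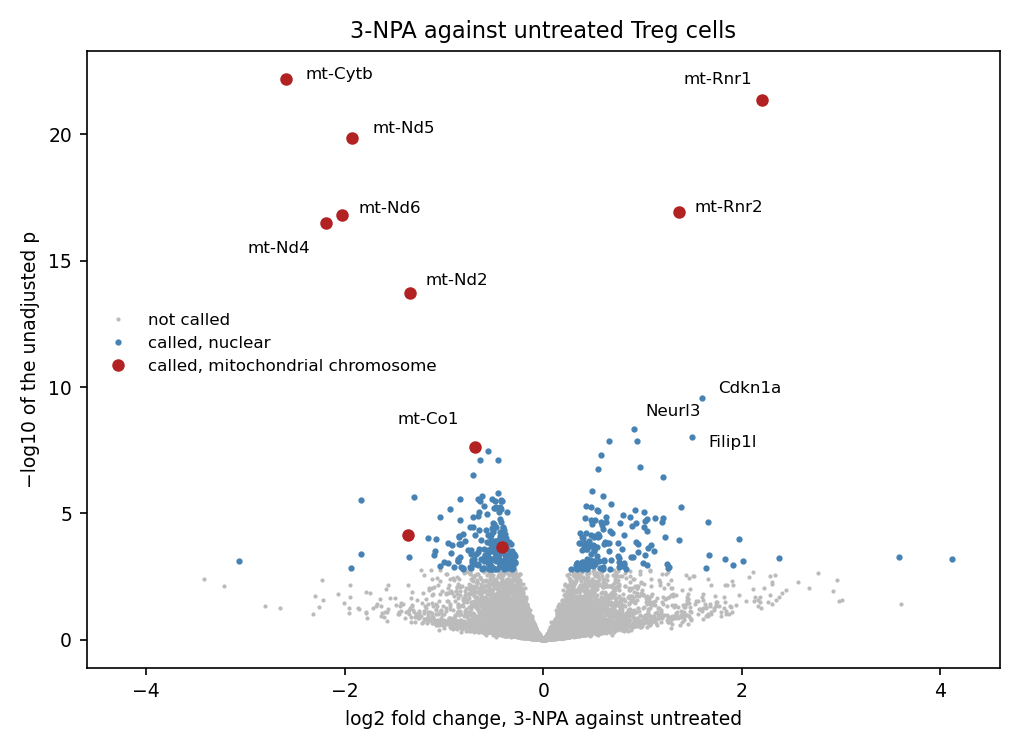
Each point is 1 of the 11689 genes tested, with the log2 fold change of 3-NPA against untreated Treg cells on the horizontal axis and the -log10 of the unadjusted p on the vertical axis. The 377 called genes are coloured, and the 10 called genes of the mitochondrial chromosome, drawn larger, include the 7 genes with the smallest p.

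The largest and most certain changes were in RNA made from mitochondrial DNA, where 10 genes were called. Mitochondrial DNA is a small circle whose strands are each copied into long transcripts. These are cut, mostly at the transfer RNA genes that lie between the others, into 2 ribosomal RNAs (rRNAs) and the mRNAs of 13 genes for subunits of the respiratory chain, some of which share an mRNA. Counting along the plus strand, the rRNAs mt-Rnr1 and mt-Rnr2 come first, and the mRNAs mt-Nd1 to mt-Cytb follow. In 3-NPA cells both rRNAs were higher and all 7 of the mRNA genes that could be tested were lower. The other 6 had 0 counts in every in vitro library (mt-Co2, mt-Atp8, mt-Atp6, mt-Co3 and mt-Nd4l) or 2 counts over all 12 (mt-Nd3), so nothing can be said of them.

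The rise and the fall met at the transfer RNA gene mt-Tl1 (tRNA-Leu), which lies between mt-Rnr2 and mt-Nd1 and is known in human mitochondria as the place where the termination factor MTERF1 binds. It is shown because it is the boundary between the genes that rose and those that fell. In the GRCm38 sequence at chrM:2656-2770, plus strand, capitals mark mt-Tl1, the lower-case bases before it are the end of mt-Rnr2 and those after it the start of mt-Nd1:
mt-Tl1: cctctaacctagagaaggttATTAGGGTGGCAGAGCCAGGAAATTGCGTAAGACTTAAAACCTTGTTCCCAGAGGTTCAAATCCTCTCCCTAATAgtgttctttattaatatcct
The transfer RNA itself had 1 count over the 12 libraries.

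On the 5′ side of this boundary, mt-Rnr1 (12S rRNA, chromosome M, 70 to 1024, mm10) read 3278, 4151 and 3308 CPM in 3-NPA cells against 881, 664 and 725 CPM in untreated cells. Every 3-NPA library stood far above every untreated one, with a log2 fold change of 2.20 and a standard error (SE, given after ± for each fold change here) of 0.11 (adjusted p = 2.48e-18). The neighbouring mt-Rnr2 (16S rRNA, 1094 to 2675) read 3989, 4808 and 3918 CPM against 1732, 1389 and 1684 CPM, a log2 fold change of 1.36 ± 0.09 (adjusted p = 3.51e-14). Both rRNAs kept their calls without each of the 6 libraries in turn.

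On the 3′ side, mt-Nd1, the first mRNA (2751 to 3707), was the least affected, with 2023, 1967 and 1764 CPM in 3-NPA cells against 2767, 2231 and 2440 CPM in untreated cells (log2 fold change -0.41 ± 0.10, adjusted p = 0.0142). Its call was lost by DESeq2 (adjusted p = 0.128) and without 3-NPA replicate 3 or untreated replicate 1 or 3 (up to 0.148). Next along the strand, mt-Nd2 (3914 to 4951) read 595, 613 and 517 CPM against 1556, 1345 and 1361 CPM (-1.35 ± 0.11, adjusted p = 3.19e-11). The cytochrome oxidase subunit mt-Co1 (5328 to 6872) read 2708, 2810 and 2455 CPM against 4449, 3919 and 4134 CPM (-0.69 ± 0.10, adjusted p = 2.11e-05). In each of these genes every 3-NPA library lay below every untreated one, and the last 2 kept their calls without each library.

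The genes farthest from the rRNAs were the lowest relative to untreated cells. For mt-Nd4 (10167 to 11544), 246, 171 and 183 CPM in 3-NPA cells stood against 894, 860 and 913 CPM in untreated cells, a log2 fold change of -2.19 ± 0.15 (adjusted p = 6.22e-14). For mt-Nd5 (11742 to 13565) it was -1.92 ± 0.11 (adjusted p = 5.32e-17). The gene for cytochrome b of complex III, mt-Cytb (14145 to 15288), fell furthest, with 516, 459 and 373 CPM against 2892, 2495 and 2524 CPM (-2.59 ± 0.12, adjusted p = 7.45e-19), so that 3-NPA cells held 0.166 times the untreated level. Over the 8 tested genes of the plus strand other than transfer RNAs, the rank correlation between position and log2 fold change was -0.95. This is a description, since the genes share libraries and a transcript.

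**Figure D2:**
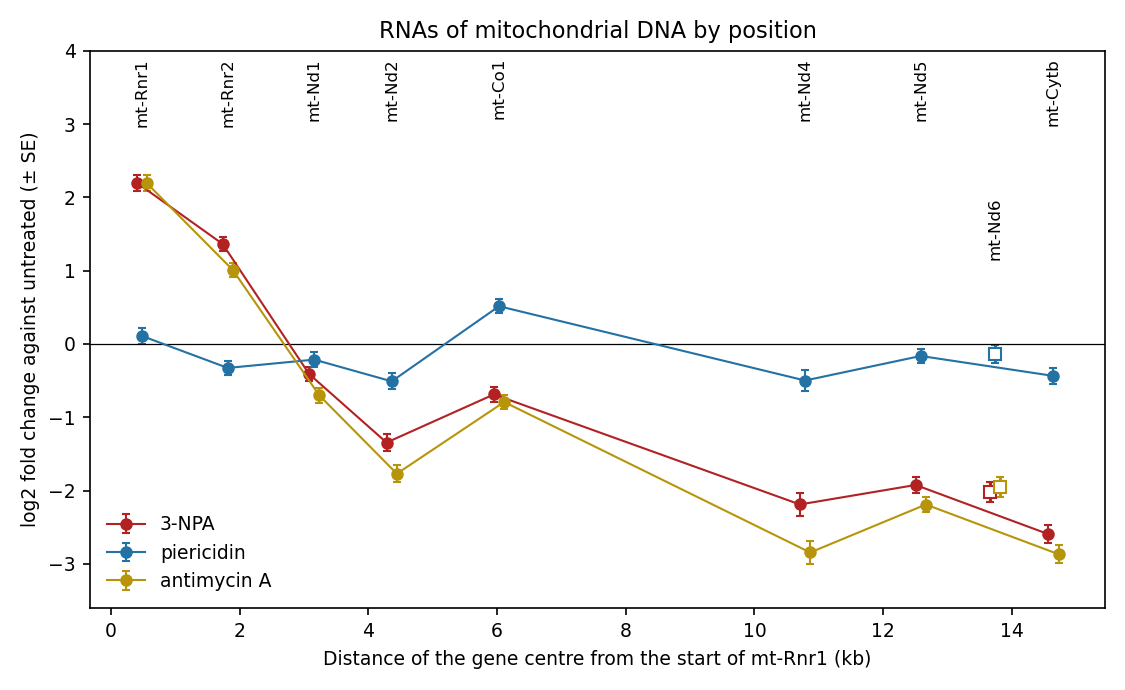
The log2 fold change against untreated cells (± SE) of each tested rRNA and mRNA of mitochondrial DNA is plotted by the distance of its centre from the start of mt-Rnr1, for 3-NPA, piericidin and antimycin A (n = 3 each). Circles joined by lines are plus-strand genes and open squares mt-Nd6 of the minus strand. With 3-NPA the values run downwards with distance, with mt-Rnr1 at 2.20 and mt-Cytb at -2.59, with mt-Co1 above its neighbours, and antimycin A follows nearly the same path, while piericidin stays between -0.51 and 0.51.

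The single mRNA of the minus strand, mt-Nd6 (13552 to 14070), was lower too, with 174, 167 and 118 CPM in 3-NPA cells against 677, 539 and 593 CPM in untreated cells (log2 fold change -2.02 ± 0.14, adjusted p = 3.79e-14). The transfer RNA mt-Tp, also on that strand, had -1.36 ± 0.31 (adjusted p = 0.00771) at low counts, and its call was lost without 3-NPA replicate 3 or untreated replicate 1 (adjusted p up to 0.106). The strand setting of the counting was not given in the sources used here, and mt-Nd6 overlaps the end of mt-Nd5, so reads of the strands cannot be told apart.

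Summed, the rRNAs took 0.782 ± 0.099% of all counts in 3-NPA cells and 0.236 ± 0.028% in untreated cells (SD, n = 3 each), while the mRNAs took 0.644 ± 0.054% in 3-NPA cells and 1.40 ± 0.097% in untreated cells. The ratio of rRNA to mRNA counts was 1.06, 1.35 and 1.24 in the 3-NPA libraries against 0.174, 0.156 and 0.175 in the untreated ones, 7.23-fold higher on average. The 2 groups were fully apart, and an exact permutation test (two-sided) gave p = 0.1, the smallest that 3 against 3 libraries allow. Per length, computed as RPKM (reads divided by gene length and library size), mean mt-Rnr1 RPKM was 3722 in 3-NPA cells and 809 in untreated cells, and mean mt-Cytb RPKM was 390 in 3-NPA cells and 2352 in untreated cells. The libraries were poly(A)-selected, so more RNA and more polyadenylated RNA cannot be told apart, nor can fewer cells of a kind and less RNA per cell in any result from these bulk samples.

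**Figure D3:**
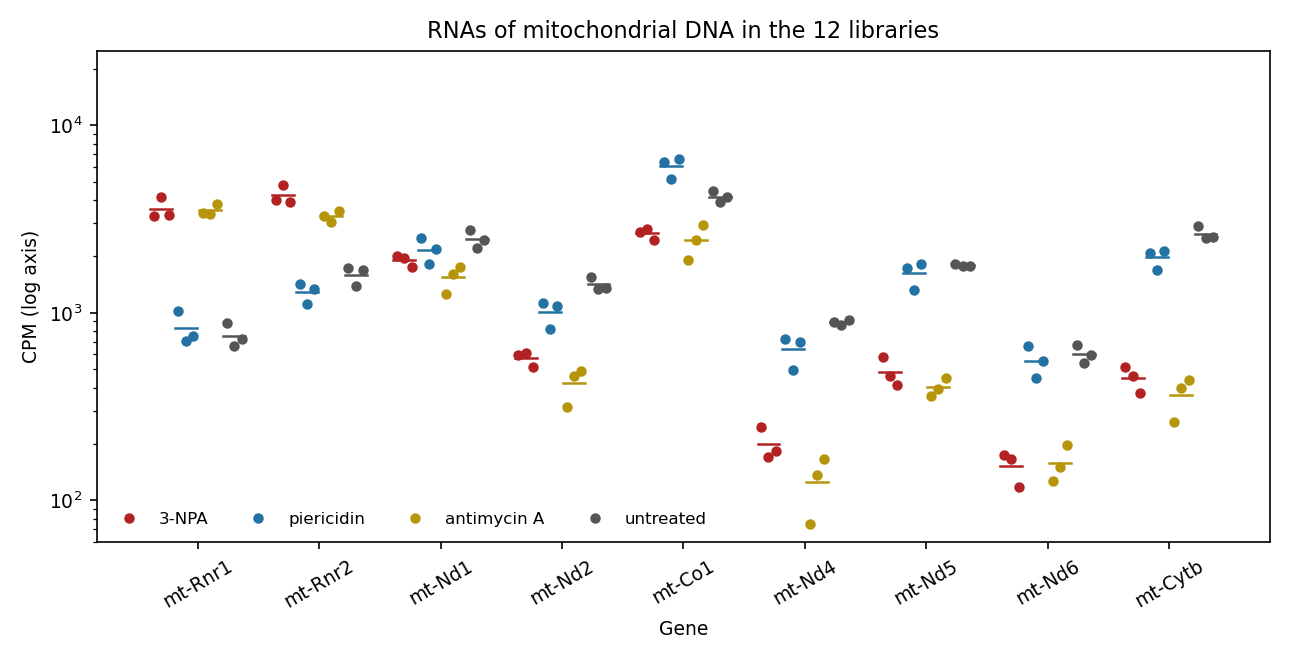
Each point is the CPM (log axis) of a mitochondrial rRNA or mRNA in 1 of the 12 libraries, coloured by group, and each bar is the mean of the 3 libraries. For mt-Rnr1 the 3-NPA and antimycin A libraries lie between 3278 and 4151 CPM, above 1026 CPM, the highest of the piericidin and untreated ones, and for mt-Cytb the order is turned round.

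The direct comparisons placed 3-NPA with antimycin A and away from piericidin on these genes. Against piericidin, mt-Rnr1 was higher by 2.09 ± 0.11 on the log2 scale (adjusted p = 2.68e-17) and mt-Cytb differed by -2.16 ± 0.12 (adjusted p = 1.04e-16), and 6 of the 7 mRNAs were lower, also without each library in turn. Against antimycin A, the difference in mt-Rnr1 was 0.01 ± 0.10 (adjusted p = 0.98) and in mt-Cytb 0.27 ± 0.12 (adjusted p = 0.216). Those called were mt-Rnr2, which was higher in 3-NPA cells by 0.36 ± 0.09 (adjusted p = 0.0148), mt-Nd2, by 0.42 ± 0.11 (adjusted p = 0.0256), and mt-Nd4, by 0.66 ± 0.16 (adjusted p = 0.0105). DESeq2 called none of these 3 (adjusted p of 0.0981, 0.162 and 0.157). The mt-Nd2 and mt-Nd4 calls were lost without 3-NPA replicate 1 or antimycin A replicate 1, that of mt-Nd2 also without 3-NPA replicate 2, and that of mt-Rnr2 without 3-NPA replicate 2 or antimycin A replicate 2 (up to 0.181). The mean ratio of rRNA to mRNA counts was 1.22 ± 0.14 with 3-NPA, 1.27 ± 0.23 with antimycin A (exact permutation p = 0.8 for the difference) and 0.152 ± 0.012 with piericidin (SD, n = 3 each).

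The genes of the inhibited enzyme itself changed little. None of the 8 tested genes for complex II subunits and assembly factors was called, with a median log2 fold change of -0.12. Sdha, the flavoprotein that carries the succinate site (chromosome 13, 74322254 to 74350280), read 327, 273 and 317 CPM in 3-NPA cells against 287, 291 and 283 CPM in untreated cells (0.05 ± 0.09, adjusted p = 0.852), and the groups overlapped. The iron-sulfur subunit Sdhb differed by -0.07 ± 0.13 (adjusted p = 0.85) and the membrane anchor Sdhc by -0.18 ± 0.15 (adjusted p = 0.618). The other anchor, Sdhd, read 79.4, 79.0 and 92.3 CPM against 109, 116 and 108 CPM without overlap, at -0.44 ± 0.14 (adjusted p = 0.0634), a difference that DESeq2 called.

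Among the 26 TCA cycle enzymes and their regulators, 1 was called: Ogdh, the first subunit of 2-oxoglutarate dehydrogenase, which works just upstream of succinate. Ogdh (chromosome 11, 6291633 to 6356642) read 214, 171 and 187 CPM in 3-NPA cells against 303, 286 and 281 CPM in untreated cells. Every 3-NPA library was lower, the log2 fold change was -0.64 ± 0.10 (adjusted p = 5.21e-05), and the call held without each library in turn. Against piericidin it was also lower (-0.50 ± 0.10, adjusted p = 0.00131), and against antimycin A the difference was -0.29 ± 0.10 (adjusted p = 0.0838).

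The nuclear genes of the other respiratory complexes showed small values. Of 36 complex I subunits 1 was called lower (Ndufa5, -0.72 ± 0.20, adjusted p = 0.0343, lost without 3-NPA replicate 2 or 3 or untreated replicate 1 or 3, up to 0.172), of 9 complex III subunits none, and of 25 complex IV and V subunits none, although 23 of those 25 had negative values, with a median of -0.18. Uqcrfs1, the gene of RISP, read 70.1, 105 and 68.5 CPM in 3-NPA cells and 49.9, 104 and 63.1 CPM in untreated cells (0.13 ± 0.22, adjusted p = 0.838).

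Some genes of cell division were lower in 3-NPA cells. DNA replication needs the MCM helicase, the ligase Lig1 and nucleotide reduction, and mitosis needs the kinase Cdk1 and spindle motors such as Kif11. Of 28 S phase genes 11 were called lower and none higher, beside 1.87% of all genes called lower. Of 25 genes of G2 and M phase 6 were lower and none higher. Beside a median of -0.01 over all genes, the medians were -0.52 for S phase and -0.61 for G2 and M phase, and every tested member of both lists was below 0. The libraries in hand limit the second count: without 3-NPA replicate 2 or untreated replicate 2, none of the G2 and M phase genes was called, and DESeq2 called none. The S phase count was 10 by DESeq2 and 6 without 3-NPA replicate 2 or 3.

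The DNA ligase gene Lig1 read 171, 140 and 178 CPM in 3-NPA cells against 271, 252 and 253 CPM in untreated cells (log2 fold change -0.70 ± 0.11, adjusted p = 0.000172). The helicase gene Mcm5 read 251, 216 and 245 CPM against 348, 357 and 358 CPM (-0.62 ± 0.11, adjusted p = 0.000967). For Uhrf1, which carries DNA methylation over to the new strand, 167, 96.0 and 138 CPM stood against 252, 231 and 216 CPM (-0.84 ± 0.15, adjusted p = 0.00108). In these 3 genes the groups did not overlap, and each call held without any 1 library.

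Cdk1 read 40.4, 32.1 and 45.9 CPM in 3-NPA cells against 81.8, 93.7 and 69.5 CPM in untreated cells (-1.08 ± 0.25, adjusted p = 0.0098). The proliferation marker Mki67 read 322, 264 and 298 CPM against 399, 532 and 395 CPM (-0.62 ± 0.15, adjusted p = 0.0104), and Kif11 read 69.0, 63.5 and 78.4 CPM against 121, 147 and 99.2 CPM (-0.84 ± 0.20, adjusted p = 0.0123). None of the 3 overlapped between groups. Their calls were lost without 3-NPA replicate 2 or untreated replicate 2, those of Mki67 without 3-NPA replicate 3 and those of Kif11 without 3-NPA replicate 1 or untreated replicate 1 as well (adjusted p up to 0.0971). Outside both lists, the central spindle gene Prc1 read 27.3, 24.0 and 22.6 CPM against 57.2, 59.6 and 60.7 CPM (-1.30 ± 0.24, adjusted p = 0.00105), which held without each library.

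Many division genes were higher with 3-NPA than with either other inhibitor. The median log2 fold change of the S phase list against untreated cells was -0.52 with 3-NPA, -1.02 with piericidin and -1.31 with antimycin A, and that of the G2 and M phase list was -0.61, -1.46 and -2.03. In the direct comparison with piericidin, 11 of 28 S phase genes and 11 of 25 G2 and M phase genes were higher in 3-NPA cells and none lower, beside 2.43% of all genes called higher. Against antimycin A 23 of 28 and 20 of 25 were higher, beside 2.38%. Lig1 read 124, 131 and 99.8 CPM with piericidin and 88.6, 96.1 and 77.7 CPM with antimycin A, so the 3-NPA libraries stood between these and the untreated ones (higher by 0.45 ± 0.12, adjusted p = 0.0206, against piericidin, and by 0.88 ± 0.12, adjusted p = 1.88e-05, against antimycin A). The S phase count against piericidin was 3 without piericidin replicate 3, and that against antimycin A was 14 without antimycin A replicate 3. The G2 and M phase count against piericidin was 7 without 3-NPA replicate 1 and also by DESeq2.

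The transcription factor p53 is known to halt division after stress. Of 19 tested target genes of p53, 4 were called higher in 3-NPA cells and none lower, beside 1.35% of all genes called higher. All 19 had positive values, and the median was 0.51. The leading one was Cdkn1a, the p21 inhibitor of cyclin-dependent kinases (chromosome 17, 29090979 to 29100722), with 96.7, 92.0 and 83.6 CPM in 3-NPA cells against 20.2, 30.1 and 37.1 CPM in untreated cells. Every 3-NPA library stood well above the highest untreated one, the fold was 3.03 (log2 fold change 1.60 ± 0.19, adjusted p = 3.81e-07), and the call held without each library in turn. Trp53inp1 read 447, 440 and 448 CPM against 260, 318 and 288 CPM (0.58 ± 0.09, adjusted p = 3.71e-05), Ccng1 (cyclin G1) differed by 0.48 ± 0.10 (adjusted p = 0.00321) and the fourth, Zmat3, by 0.67 ± 0.15 (adjusted p = 0.00593).

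Some of these genes differed between 3-NPA and piericidin. Cdkn1a read 19.6, 14.6 and 19.0 CPM with piericidin, and was higher with 3-NPA by 2.33 ± 0.20 on the log2 scale in the direct comparison (adjusted p = 7.79e-11). With antimycin A it read 113, 81.7 and 79.9 CPM (difference -0.03 ± 0.18, adjusted p = 0.965). Against piericidin 6 of the 19 targets were higher in 3-NPA cells and none lower, beside 2.43% of all genes called higher. Against antimycin A 3 were lower and none higher, beside 1.60% of all genes called lower. Ccng1 was among the 3, at -0.57 ± 0.10 (adjusted p = 0.000253). The count was 1 without 3-NPA replicate 2 or 3 or antimycin A replicate 1 or 3. The median of the list was 0.51 with 3-NPA, 0.08 with piericidin and 0.75 with antimycin A. Psrc1, a spindle gene among the 12 largest rises, followed the same order of groups, with 40.7, 16.6 and 28.4 CPM in 3-NPA cells, 5.81, 7.67 and 11.1 CPM with piericidin, 38.5, 27.8 and 35.7 CPM with antimycin A and 3.48, 10.5 and 12.5 CPM in untreated cells (1.66 ± 0.34 for 3-NPA against untreated, adjusted p = 0.00351, and 0.0507 without untreated replicate 1).

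**Figure D4:**
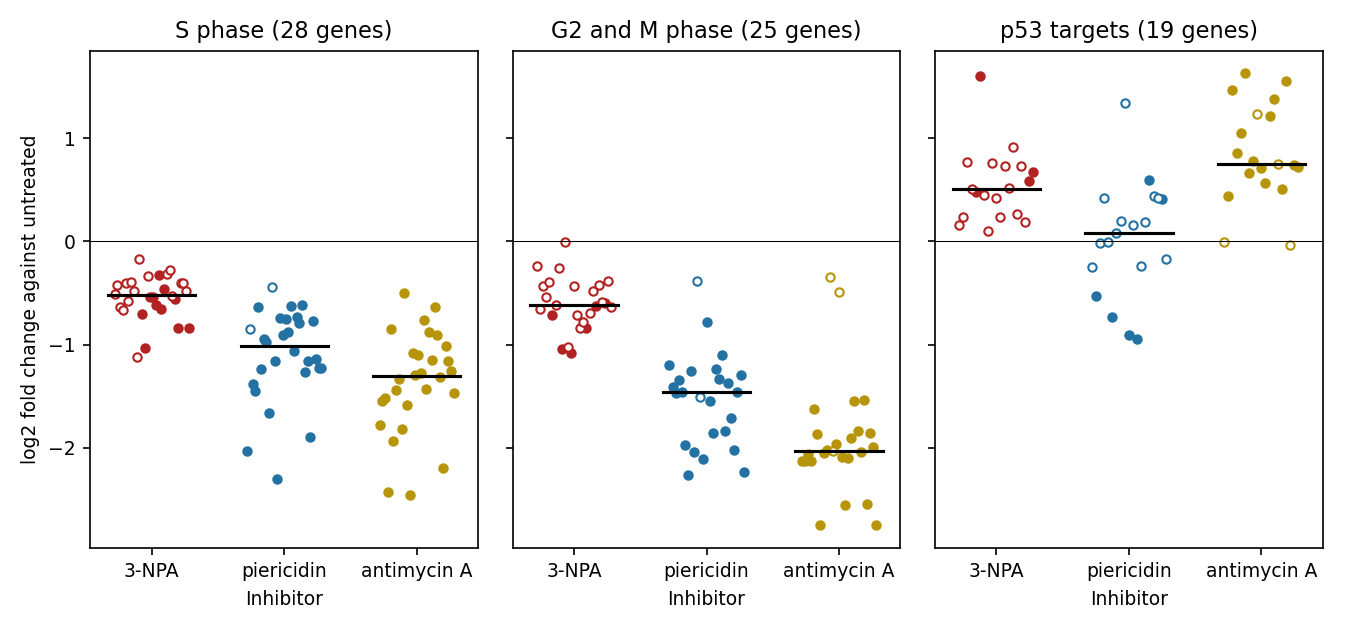
Each point is the log2 fold change of 1 gene against untreated cells for each inhibitor, for 28 S phase genes, 25 G2 and M phase genes and 19 p53 targets; filled points are called genes and bars are medians. The 3 inhibitors share the untreated libraries. The S phase medians are -0.52 with 3-NPA, -1.02 with piericidin and -1.31 with antimycin A, and the p53 target medians are 0.51, 0.08 and 0.75.

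Promoters of division genes were searched for motifs that many such genes are known for: the E2F core (searched as TTCCCGC or TTGGCGC) in S phase genes, and the CHR element (searched as TTTGAA or TTCGAA) and the CCAAT box (searched as CCAAT) in genes of G2 and M phase, each on either strand. RefSeq promoter sequences (GRCm38.p6, the 250 bases upstream of the start) were matched for 162 of the 219 genes called lower and 123 of the 158 called higher. A gene with several promoters counted if any of them held the motif. The E2F core stood in 47 of the 162 (29%) and in 11 of the 123 (8.94%). It stood in 12.2% of 8705 tested genes and 6.45% of all 27025 genes with a promoter sequence. The CHR letters stood in 37 of the 162 (22.8%) and in 22 of the 123 (17.9%), against 14.5% of tested genes and 19.6% of all. CCAAT stood in 90 of the 162 (55.6%) and in 49 of the 123 (39.8%), against 40.7% of tested genes and 37.5% of all. Most matched S phase genes lacked the E2F core, and most matched G2 and M phase genes lacked the CHR letters but held CCAAT. The E2F core stood in 8 of 23 matched S phase genes (34.8%) and the CHR letters in 8 of 20 matched genes of G2 and M phase (40%). Among the members called lower, the counts were 5 of 10 and 5 of 5. CCAAT stood in 15 of the 23 and 18 of the 20. Overlaps between the motifs were not removed. The motifs are a description of these windows and say nothing of binding.

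These 4 promoters are shown because their genes fell and each holds the E2F core or the CHR letters, in capitals. They are Mcm5 (chr8:75109259-75109508, plus strand) and Mcm6 (chr1:128359706-128359955, minus strand) with the E2F core, and Cdk1 (chr10:69352913-69353162, minus strand) and Kif11 (chr19:37376132-37376381, plus strand) with the CHR letters:
Mcm5: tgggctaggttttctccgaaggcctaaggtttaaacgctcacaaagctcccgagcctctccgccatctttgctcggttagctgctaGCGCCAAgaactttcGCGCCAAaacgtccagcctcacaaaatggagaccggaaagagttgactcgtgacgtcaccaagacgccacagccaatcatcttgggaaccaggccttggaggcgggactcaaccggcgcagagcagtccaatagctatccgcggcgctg
Mcm6: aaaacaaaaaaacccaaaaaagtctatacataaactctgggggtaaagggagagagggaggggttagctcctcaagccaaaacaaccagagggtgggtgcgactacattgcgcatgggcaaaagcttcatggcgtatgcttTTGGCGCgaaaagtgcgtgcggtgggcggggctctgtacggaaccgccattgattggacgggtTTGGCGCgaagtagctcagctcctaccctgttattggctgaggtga
Cdk1: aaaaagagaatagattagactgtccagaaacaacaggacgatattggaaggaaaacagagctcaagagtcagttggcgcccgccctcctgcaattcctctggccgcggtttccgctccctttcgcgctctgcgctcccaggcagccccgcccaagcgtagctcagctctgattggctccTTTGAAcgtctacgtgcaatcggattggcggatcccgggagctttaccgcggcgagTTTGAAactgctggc
Kif11: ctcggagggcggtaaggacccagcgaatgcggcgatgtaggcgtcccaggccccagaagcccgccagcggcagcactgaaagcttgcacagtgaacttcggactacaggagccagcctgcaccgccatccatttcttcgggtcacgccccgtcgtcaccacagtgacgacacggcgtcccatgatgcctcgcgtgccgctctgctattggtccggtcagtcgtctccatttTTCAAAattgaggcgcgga
Mcm5, Mcm6 and Cdk1 each carry their motif 2 times in this window, and Kif11 carries it 1 time. The searched letters are on the strand shown in Mcm6 and Cdk1 and on the opposite strand in Mcm5 and Kif11. Mcm6, another helicase subunit, read 475, 426 and 443 CPM in 3-NPA cells against 552, 541 and 549 CPM in untreated cells (-0.33 ± 0.09, adjusted p = 0.0291).

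The integrated stress response, in which the transcription factor Atf4 raises genes for amino acid synthesis, uptake and transfer RNA charging, is known as a response of many cells to mitochondrial inhibitors. Here none of its 34 tested genes was higher in 3-NPA cells and 6 were lower, with a median of -0.11. Atf4 itself (chromosome 15, 80255184 to 80257540) read 145, 183 and 164 CPM in 3-NPA cells against 204, 201 and 221 CPM in untreated cells, a log2 fold change of -0.39 ± 0.10 (adjusted p = 0.0302). The groups did not overlap, but the call was lost without 3-NPA replicate 1 or 3 or untreated replicate 1 or 3 (adjusted p up to 0.175). The amino acid transporter gene Slc7a5 read 179, 125 and 151 CPM against 231, 242 and 219 CPM (-0.64 ± 0.12, adjusted p = 0.00112), and this held without each library. The serine synthesis enzymes Psat1 (-0.44 ± 0.10, adjusted p = 0.00771, lost without 3-NPA replicate 3 or untreated replicate 2, up to 0.0583) and Phgdh (-0.48 ± 0.11, adjusted p = 0.0107, lost without 3-NPA replicate 1 or 3 or untreated replicate 1, up to 0.0869) were lower as well. The count of 6 was 1 without 3-NPA replicate 3 and 9 by DESeq2.

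In the direct comparisons some of these genes were lower in 3-NPA cells than with either other inhibitor. Against piericidin 10 of the 34 genes were lower and none higher (median -0.35), and against antimycin A 8 were lower and none higher (median -0.34), beside 1.87% and 1.60% of all genes called lower. Atf4 read 204, 228 and 246 CPM with piericidin and 224, 204 and 230 CPM with antimycin A, and 3-NPA cells differed by -0.48 ± 0.10 (adjusted p = 0.00425) from piericidin and by -0.43 ± 0.10 (adjusted p = 0.00962) from antimycin A. Asns, which makes asparagine and was named after its values were seen, read 33.1, 22.2 and 18.9 CPM in 3-NPA cells, 55.6, 43.8 and 60.8 CPM with piericidin, 50.4, 39.0 and 41.6 CPM with antimycin A, and 20.9, 23.9 and 19.6 CPM in untreated cells. It differed from piericidin by -1.13 ± 0.22 (adjusted p = 0.00115), from antimycin A by -0.84 ± 0.22 (adjusted p = 0.0198) and from untreated cells by 0.16 ± 0.23 (adjusted p = 0.8). Without 1 library the counts of 10 and 8 fell as low as 3 (3-NPA replicate 3 or piericidin replicate 3) and 2 (3-NPA replicate 1 or 3 or antimycin A replicate 3).

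Some genes for growth and protein making were lower with 3-NPA. Of 20 aminoacyl-tRNA synthetases 5 were called lower and none higher, and all 20 had negative values (median -0.28); the leucine enzyme Lars read 135, 129 and 133 CPM in 3-NPA cells against 180, 192 and 176 CPM in untreated cells (-0.50 ± 0.11, adjusted p = 0.00662) and held without each library. Of 20 genes of serine and one-carbon metabolism 5 were lower and none higher (median -0.29), with the mitochondrial folate enzyme Mthfd1l at -0.44 ± 0.10 (adjusted p = 0.00634). Each of these counts was 1 without 3-NPA replicate 3. The serine and one-carbon list overlaps with the integrated stress response list, so their counts are not separate results. Of 23 ribosome biogenesis genes 3 were lower and none higher (median -0.24). The nucleolar proteins led: Ncl read 1965, 1674 and 1863 CPM against 2452, 2360 and 2376 CPM (-0.43 ± 0.08, adjusted p = 0.00111), Npm1 differed by -0.41 ± 0.08 (adjusted p = 0.00112) and Nop58 by -0.41 ± 0.09 (adjusted p = 0.00488, and 0.0598 without 3-NPA replicate 3). Tfrc, the receptor that brings iron into dividing cells, read 327, 259 and 297 CPM against 387, 426 and 383 CPM (-0.48 ± 0.09, adjusted p = 0.0016).

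The chaperone genes that were called were each lower. Of 9 cytosolic heat shock genes 3 were called lower and none higher, and 3 of the 9 had positive values. Hsp90ab1, the constitutive HSP90, read 3329, 2922 and 3142 CPM in 3-NPA cells against 4199, 4070 and 4281 CPM in untreated cells (-0.46 ± 0.07, adjusted p = 5.21e-05), and Hspa8, the constitutive HSP70, read 1233, 1123 and 1205 CPM against 1588, 1518 and 1547 CPM (-0.43 ± 0.08, adjusted p = 0.00112). Both were apart between groups in every library and held without each one. Of 20 genes of mitochondrial stress and protein import 3 were lower and none higher: Phb2 (prohibitin 2, -0.47 ± 0.10, adjusted p = 0.00488), the mitochondrial HSP90 Trap1 (-0.53 ± 0.13, adjusted p = 0.0117) and the import pore Tomm40 (-0.56 ± 0.15, adjusted p = 0.0273). None of these 3 kept its call without 3-NPA replicate 2. Of 16 genes of the endoplasmic reticulum stress response 1 was lower and none higher. On the antioxidant list of 19 tested genes 18 were not called, and the median was -0.02. The 1 called was Txnip, whose product binds thioredoxin, and it was higher.

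The glycolysis genes called against untreated cells went in both directions. Of 22 glycolysis genes 3 were called lower (Ldha -0.37 ± 0.09, adjusted p = 0.00873; Gapdh -0.32 ± 0.09, adjusted p = 0.0298; Pgk1 -0.41 ± 0.12, adjusted p = 0.0414) and 1 higher (Eno2, a second enolase, 1.26 ± 0.37, adjusted p = 0.0451), with a median of -0.04. All 4 calls were lost without 3-NPA replicate 3 and without untreated replicate 1 or 3. Ldha read 947, 854 and 775 CPM in 3-NPA cells, 638, 618 and 584 CPM with antimycin A and 1132, 1018 and 1092 CPM in untreated cells. Against antimycin A it was higher in 3-NPA cells by 0.47 ± 0.09 (adjusted p = 0.000531). In that comparison 6 of the 22 genes were higher and none lower, beside 2.38% of all genes called higher. The count was 4 without 3-NPA replicate 1 or 3 or antimycin A replicate 3.

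Succinate that builds up behind a blocked complex II is known to inhibit dioxygenases that use 2-oxoglutarate, among them the prolyl hydroxylases that mark HIF-1α for destruction and the JmjC histone demethylases. None of 16 tested hypoxia response genes was called, at a median of 0.20, against -0.01 over all genes. The smallest p were those of Ndrg1 (0.62 ± 0.20, adjusted p = 0.0838) and Pdk1, which restrains pyruvate dehydrogenase (0.38 ± 0.14, adjusted p = 0.14). Of 23 genes for dioxygenases 2 were higher and none lower. Kdm5b, a demethylase of lysine 4 of histone H3, read 99.1, 105 and 99.8 CPM in 3-NPA cells against 60.3, 67.2 and 67.1 CPM in untreated cells (0.60 ± 0.13, adjusted p = 0.0054) and held without each library. Kdm7a differed by 0.50 ± 0.14 (adjusted p = 0.0336), which was lost without 3-NPA replicate 2 or 3 or untreated replicate 1 or 2 (up to 0.19). Kdm5b read 98.6 to 113 CPM with piericidin and 107 to 124 CPM with antimycin A, and neither differed from 3-NPA (adjusted p = 0.84 and 0.5).

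Treg identity genes did not stand out from the other genes tested. Of 24 such genes 1 was called, beside 3.23% of all genes. The median was 0.002, beside -0.01 over all genes. The log2 fold change of Foxp3 was 0.13 ± 0.09 (adjusted p = 0.537), that of Il2ra -0.11 ± 0.07 (adjusted p = 0.471) and that of the inhibitory receptor Ctla4 -0.13 ± 0.08 (adjusted p = 0.417). The called gene was Socs2, a feedback inhibitor of cytokine signalling, with 336, 306 and 286 CPM in 3-NPA cells against 398, 444 and 421 CPM in untreated cells (-0.49 ± 0.09, adjusted p = 0.00161), kept without each library. Foxp3 was lower with 3-NPA than with piericidin, which read 730, 789 and 825 CPM (-0.38 ± 0.09, adjusted p = 0.013), and not called against antimycin A (-0.21 ± 0.09, adjusted p = 0.225).

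Of 23 suppressive effector genes 2 were higher and 1 lower. Tigit, an inhibitory receptor of Treg cells, read 139, 177 and 155 CPM in 3-NPA cells against 96.4, 114 and 93.8 CPM in untreated cells (0.59 ± 0.12, adjusted p = 0.00436) and held without each library. Furin, a protease that activates TGF-β, differed by 0.42 ± 0.12 (adjusted p = 0.0365), lost without 5 of the 6 libraries, 3-NPA replicate 2 being the exception (up to 0.212). The cytokine gene Il10 read 13.1, 20.3 and 27.3 CPM against 30.3, 34.2 and 40.2 CPM (-0.81 ± 0.24, adjusted p = 0.049). That call stood at the threshold: it was lost without any library but 3-NPA replicate 3 (up to 0.24), with other scaling factors and in a fit of the 2 groups alone (adjusted p = 0.0655). Against piericidin Il10 was lower too (-0.94 ± 0.24, adjusted p = 0.017).

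Among 20 chemokine receptor and homing genes, Cxcr4 was higher (88.0, 101 and 103 CPM in 3-NPA cells against 50.9, 62.8 and 62.8 CPM in untreated cells, 0.69 ± 0.15, adjusted p = 0.00682, lost without 3-NPA replicate 3 or untreated replicate 1). Of 24 genes of the T cell receptor response 2 were higher, the AP-1 member Fosl2 and the early response gene Egr1, and none was called without 3-NPA replicate 3. Egr1 read 90.1, 82.7 and 116 CPM in 3-NPA cells against 74.6, 66.6 and 57.7 CPM in untreated cells (0.50 ± 0.14, adjusted p = 0.0394), and its call was lost without 3-NPA replicate 1 or 3 or untreated replicate 2 or 3 (up to 0.285) and in a fit of the 2 groups alone (adjusted p = 0.0554). Fosl2 read 121, 96.0 and 137 CPM in 3-NPA cells, 162, 164 and 206 CPM with piericidin, 173, 179 and 199 CPM with antimycin A and 67.0, 78.3 and 77.6 CPM in untreated cells. It thus stood between the untreated cells (0.63 ± 0.13, adjusted p = 0.00351, and 0.0623 without 3-NPA replicate 3) and those given piericidin (-0.60 ± 0.12, adjusted p = 0.00252) or antimycin A (-0.65 ± 0.12, adjusted p = 0.000903). Myc, named after its values were seen, did not differ from untreated cells by the test (0.04 ± 0.10, adjusted p = 0.884) and was higher in 3-NPA cells than with piericidin (0.70 ± 0.10, adjusted p = 1.76e-05) or antimycin A (0.54 ± 0.10, adjusted p = 0.000665).

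Of 20 interferon-stimulated genes 3 were lower and none higher: the immunity-related GTPases Irgm1 (59.7, 99.4 and 58.6 CPM in 3-NPA cells against 126, 122 and 116 CPM in untreated cells, -0.79 ± 0.18, adjusted p = 0.0109) and Iigp1 (-0.92 ± 0.22, adjusted p = 0.013), and Gbp2 (-0.52 ± 0.15, adjusted p = 0.0489). In Irgm1 3-NPA replicate 2 stood nearer to the untreated cells than the others did. None of the 3 was called without 3-NPA replicate 1 or 3 or untreated replicate 1, and DESeq2 called Irgm1 alone.

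Markers of other cells were compared beside these values. The 14 T cell markers summed to 4912 to 5198 CPM in 3-NPA cells and 5243 to 5450 CPM in untreated cells, and 2 of them were lower, Cd2 (-0.39 ± 0.09, adjusted p = 0.00577, lost without 3-NPA replicate 1 or 3 or untreated replicate 3) and Lat (-0.32 ± 0.09, adjusted p = 0.049). The Lat call was lost without any library but 3-NPA replicate 2 (up to 0.232), with other scaling factors, another filter or none, without mitochondrial genes and in a fit of the 2 groups alone (adjusted p = 0.0658). Of 11 B cell markers 4 could be tested and 1 was called, the immunoglobulin heavy chain gene Ighm, with 309, 449 and 337 CPM against 491, 541 and 469 CPM (-0.49 ± 0.10, adjusted p = 0.00406, lost without 3-NPA replicate 1 or 3). Ighm made up nearly all of the B cell sum of 323 to 467 CPM in 3-NPA cells and 481 to 549 CPM in untreated cells, while Ms4a1 was at 0 and Cd79a at no more than 1.38 CPM. Of the 4 tested, 2 had positive and 2 negative values. Cd79b read 7.59 to 9.23 CPM in 3-NPA cells and 3.21 to 7.76 CPM in untreated cells. Igkc read up to 4.06 CPM in 3-NPA cells and up to 1.17 CPM in untreated cells. The 10 dendritic cell markers summed to 59.1 to 84.2 CPM against 46.1 to 59.7 CPM, mostly Cd74, with Clec9a and Batf3 at 0. The 7 epithelial and stromal markers summed to 77.3 to 98.6 CPM against 68.3 to 99.8 CPM. The part of any other cell type in the results was not tested.

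A small set of 13 genes (0.111%) set 3-NPA apart from all 3 other groups in the same direction: 6 were higher and 7 lower. Beside mt-Rnr2, the rises included those of Tfdp2, a partner of E2F factors, and of the creatine kinase Ckb. Tfdp2 read 66.6, 80.9 and 56.0 CPM in 3-NPA cells, 37.1, 53.3 and 33.5 CPM with piericidin, 38.9, 36.0 and 33.5 CPM with antimycin A and 34.4, 34.8 and 36.8 CPM in untreated cells. All 3-NPA libraries lay above all others, by 0.90 ± 0.19 against untreated cells (adjusted p = 0.00461, and 0.0543 without 3-NPA replicate 2), 0.70 ± 0.19 against piericidin (adjusted p = 0.0258) and 0.89 ± 0.19 against antimycin A (adjusted p = 0.00345). Ckb read 84.6, 40.3 and 61.5 CPM in 3-NPA cells against 41.4, 31.8 and 29.7 CPM in untreated cells. These groups overlapped, and the difference was 0.82 ± 0.23 (adjusted p = 0.0353, lost without 3-NPA replicate 1 or 3 or untreated replicate 2 or 3, up to 0.27).

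Txnip, which restrains glucose uptake and binds thioredoxin, differed in both directions between inhibitors. It read 271, 392 and 327 CPM in 3-NPA cells, 135, 133 and 141 CPM with piericidin, 195, 212 and 219 CPM with antimycin A and 213, 267 and 219 CPM in untreated cells. The groups did not overlap, but the lowest 3-NPA library was close to the highest untreated one, and the rise was 0.46 ± 0.11 (adjusted p = 0.0106, lost without 3-NPA replicate 2 or untreated replicate 1 or 3, up to 0.142). The direct differences were 1.26 ± 0.11 against piericidin (adjusted p = 1.4e-10) and 0.64 ± 0.11 against antimycin A (adjusted p = 0.000255).

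Cd96, an inhibitory receptor of T and natural killer cells, was 1 of the 7 genes lower than in every other group. It read 87.3, 97.5 and 84.2 CPM in 3-NPA cells, 118, 123 and 146 CPM with piericidin, 142, 145 and 132 CPM with antimycin A and 145, 129 and 140 CPM in untreated cells. The difference was -0.66 ± 0.12 against untreated cells (adjusted p = 0.00108, kept without each library), -0.54 ± 0.12 against piericidin (adjusted p = 0.00543) and -0.66 ± 0.12 against antimycin A (adjusted p = 0.000597). Tmem260 (-0.81 ± 0.18, adjusted p = 0.00733), the scaffold gene Homer1 (-0.96 ± 0.27, adjusted p = 0.0359), the interleukin 27 receptor Il27ra (-0.46 ± 0.11, adjusted p = 0.0109), Atf4 and Zfp281 (-0.31 ± 0.09, adjusted p = 0.0451) were the others, with the T cell receptor constant segment Trbc1 (-0.44 ± 0.11, adjusted p = 0.0187), whose reads can be shared with a near-identical copy. The set shrank to 4 genes without 3-NPA replicate 3, 5 without 3-NPA replicate 1 and 7 without 3-NPA replicate 2, the left-out libraries for which it was counted. Cd96 lost its call against piericidin without 3-NPA replicate 3 (adjusted p = 0.0535) or piericidin replicate 3 (adjusted p = 0.0792).

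**Figure D5:**
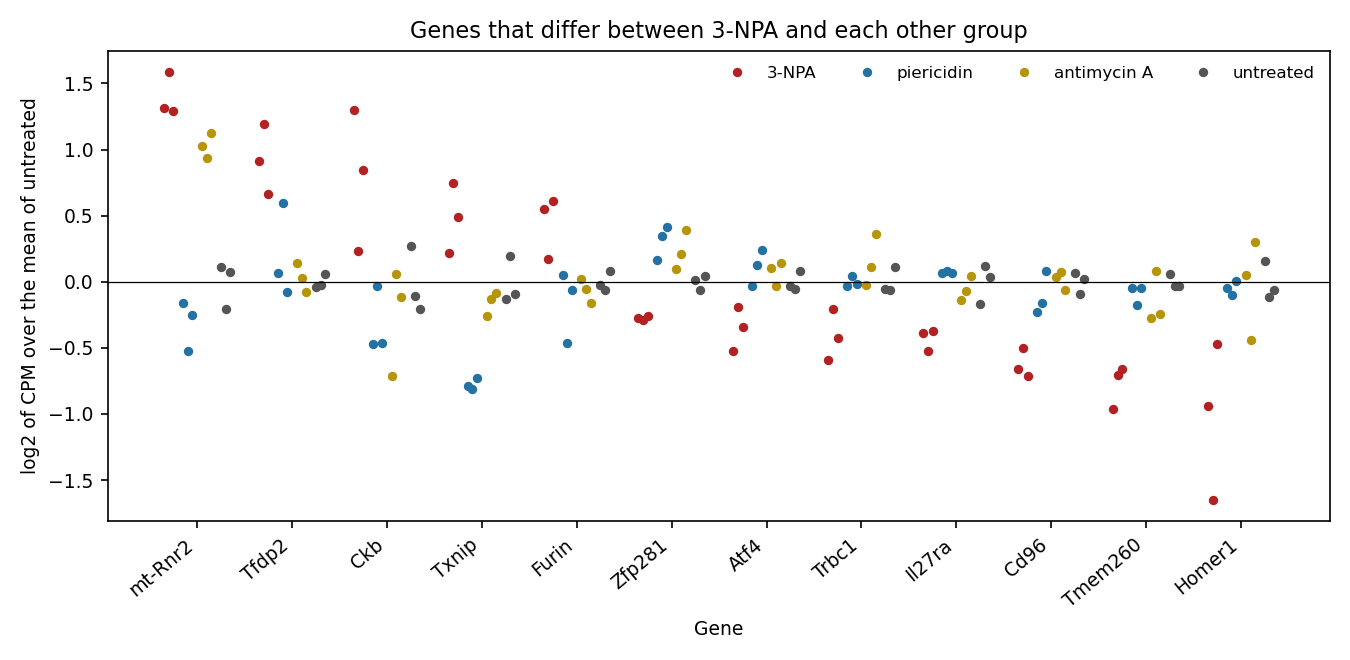
Each point is the CPM of 1 gene in 1 of the 12 libraries, as log2 over the mean of the 3 untreated libraries, for 12 of the 13 genes called in the same direction against all 3 other groups. Tfdp2 lies above and Cd96 below the other groups in every 3-NPA library, and Txnip lies highest in 3-NPA and lowest in piericidin libraries.

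Other genes with large changes belonged to no list. Filip1l read 48.3, 48.4 and 58.9 CPM in 3-NPA cells against 13.6, 17.8 and 22.3 CPM in untreated cells (2.83-fold, adjusted p = 1.11e-05), with every 3-NPA library well above the untreated ones. The phospholipid phosphatase gene Plpp5 read 39.0, 28.8 and 30.5 CPM against 12.6, 12.0 and 11.8 CPM (1.39 ± 0.26, adjusted p = 0.0016). Gad1, the enzyme that makes GABA from glutamate, was low throughout and read 9.32, 7.76 and 4.06 CPM with 3-NPA, 21.1, 20.8 and 32.9 CPM with piericidin, 6.84, 8.79 and 8.47 CPM with antimycin A and 28.7, 18.7 and 25.6 CPM in untreated cells. It was lower in 3-NPA cells than in untreated ones (-1.84 ± 0.34, adjusted p = 0.00111) and than with piericidin (-1.85 ± 0.34, adjusted p = 0.000651). These 3 calls against untreated cells held without each library.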

How the data were processed

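RNA-seq counts per Ensembl gene were used as deposited. The tools named in the submitters' processing notes are bcl2fastq, TopHat, HTSeq and edgeR, with the genome build mm10. Versions, the strand setting and filters are not given in the sources used here. Per the labels' protocols, the NEB kit was used, with NEBNext Ultra I and mRNA selected by its poly(A) tail. Gene names came from GENCODE (42462 of 43430 IDs matched), and coordinates are those of the authors' count table.

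The 12 in vitro libraries (4 groups, n = 3 each) were fitted together, so the groups share 1 estimate of the spread (a coefficient of variation of 14.73% between libraries). In R 4.3.3, edgeR 4.0.16 was run with filterByExpr by group, TMM factors and glmQLFTest, and a gene was called where its p, adjusted by Benjamini-Hochberg, was under 0.05. The prior count of log2 fold changes was 0.125, and an SE is the estimate without shrinkage over the square root of F. CPM of a library and its mitochondrial shares are relative to all of its counts. Ratios of rRNA to mRNA and the means ± SD given use no TMM scaling, while mean RPKM use TMM-scaled sizes. No 2 libraries were duplicates. Further alternatives were DESeq2 1.42.0, a 1.5-fold minimum in the test, RLE factors, a 1 CPM filter or none, fits of the 2 groups compared, a replicate block and leaving out each library. A fit without mitochondrial genes was added after seeing the data. The code was tested on simulated data.

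Members, the 43 gene lists and the tests were chosen with earlier results of these data known. Named genes are Il10, Ctla4, Il2ra, Foxp3, Uqcrfs1 and Sdha to Sdhd, the 12 largest called rises and falls at a mean log2 CPM of at least 3 without overlap, up to 3 called (or 2 uncalled) members of each list, and up to 6 genes in each direction apart from both other inhibitors. Mitochondrial mRNAs and rRNAs were all named. Genes named beyond this (Asns, Myc, Zmat3, Mcm6, Zfp281) were chosen after their values were seen. A further table has 11 per-sample columns that match no label and was not used here. Promoters are RefSeq sequences of GRCm38, and the mitochondrial sequence was joined from adjoining GENCODE transcripts of GRCm38. Some results are not reported here.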

Additional observations from a re-analysis of the deposited data

How the results depend on the processing

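Counts of called genes for 3-NPA against untreated, 3-NPA against piericidin and 3-NPA against antimycin A, and of genes apart from both inhibitors, stayed within 1.5 times their main values by DESeq2, RLE factors, no filter, the 1 CPM filter, fits of only the 2 groups and the fit without mitochondrial genes. With a 1.5-fold minimum they were 9, 23, 12 and 0. Leaving out 1 library gave 130 to 295, 230 to 409, 188 to 454 and, for 3-NPA libraries alone, 4 to 7. No named gene that was called changed sign in any of these settings. Of 85 named genes that were called, 32 stayed called whichever library was left out, and 53 did not. DESeq2 called 476 genes against untreated cells, 350 of them among the 377.

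Whether the replicate numbers pair the samples was not settled, and the main fit did not use them. Same-numbered libraries correlated weakly but always positively, at 0.004 to 0.0904 over 18 pairs. Of 12 libraries, 8 correlated best with their own number in every other group. With the replicate number as a block the counts were 481 for 3-NPA against untreated, 624 for 3-NPA against piericidin, 603 for 3-NPA against antimycin A and 18 for genes apart from both inhibitors. Each was higher than in the main fit. Depth of 2707199 to 3445930 counts limits genes at low CPM, for which a missed call does not show that levels were equal.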
